A study of Danio rerio with 8 samples.

Results

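Enamelin and 9 further genes of the cells that build, mineralise and resorb fish scales (*enam*, *alpl*, *sp7*, *runx2a*, *runx2b*, *spp1*, *sparc*, *acp5a*, *acp5b* and *phex*) were followed in a direct comparison of the cornea with the epidermis of the skin of adult zebrafish. They were taken by gene symbol, and all 10 were represented on the array, by 18 of its 45220 features, among 14462 named genes. Corneae and epidermis both came from adult fish of the AB2O2 wild type strain, with no treatment other than anaesthesia. The corneae were dissected off pooled eye globes. To prepare the dermis, the study scraped the scales, which carry the epidermis on their outer surface, off pooled fish. For the epidermis it only refers back to this step, so that scales may have been taken with it. The 2 RNAs were hybridised together on 2-colour Agilent oligonucleotide arrays in 4 biological repeats. A repeat comprised 2 arrays between which the dyes of the tissues were swapped, with repeats 1 and 2 on slide 1 and repeats 3 and 4 on slide 2.

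The scale of a teleost is a thin mineralised plate that lies below the epidermis. Osteoblasts, the cells that lay bone down, secrete a matrix of collagen and acidic, calcium-binding phosphoproteins and supply it with phosphate, and osteoclasts resorb it. Enamelin belongs to the secretory calcium-binding phosphoproteins, a family of vertebrate mineralisation proteins that arose from a relative of *sparc*, and in mammals it is a protein of forming tooth enamel. The cornea is not mineralised. Its stroma is made of collagen and proteoglycans.

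Values are log2 ratios of cornea over epidermis, so that a value of 1 stands for a 2-fold higher signal in cornea and a negative value for a lower signal in cornea. No source states this direction outright. The labels name cornea before epidermis, and cornea genes lay on the positive side: of 5 markers of the cornea (*pax6a*, *pax6b*, *six3a*, *kera* and *tnn*) all 5 were called higher in cornea, with a median log2 ratio of 3.40, and of 26 measured genes that the study had followed in cornea by RT-qPCR 24 were called higher and 1 lower. The study picked the RT-qPCR genes on its arrays and 4 of the 5 markers are among them, so neither list is independent evidence of the direction. Its RT-qPCR compared cornea with dermis, not with the epidermis used here. Markers of the epidermis did not separate the tissues in the direction of the label. Of 5 measured, *krt4* (0.94), *krt5* (1.18), *tp63* (1.77) and *epcam* (2.08) were called higher in cornea. Only *cdh1* (−0.64), the epithelial cadherin, was called lower. *epcam* is also among the RT-qPCR genes, and the paper describes the corneal epithelium as continuous with the epidermis. Most of these markers thus do not bear out the direction, and why they lay on the cornea side was not tested. SDs are between the 4 repeats, after averaging the arrays of a repeat, and a gene was called where the Benjamini-Hochberg adjusted p of limma over all genes lay under 0.05. Across all named genes the median SD between repeats was 0.310, gene ratios spanned −7.05 to 4.95, and the correlation of single arrays over features ran from r = 0.335 to r = 0.596. Spot intensities were not analysed here, so that it is unknown which probes were near background or saturated, and ratios near 0 of dim spots cannot be told from equal expression. In these bulk samples, fewer cells of a type and less RNA per cell cannot be told apart.

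Of the 10 genes, *alpl* and *sparc* were called higher in cornea, where 22.9% of all genes were, *enam* and *acp5b* were called lower, where 13.8% of all genes were, and 6 were not called. The median log2 ratio of the 10 was −0.14, against 0.03 over all named genes, and their range ran from −5.35 to 2.28. The 4 called genes therefore lay far to both sides of a middle group. Of those 4, the ratio of each remained past the threshold when tested against a 2-fold change (limma's treat), with adjusted p-values of 6.95e-05 for *enam*, 0.00488 for *alpl*, 0.00246 for *sparc* and 0.0337 for *acp5b*. For *sparc* this holds for the mean over probes that read 3.67 and 0.71, the latter below a 2-fold change.

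**Figure D1:**
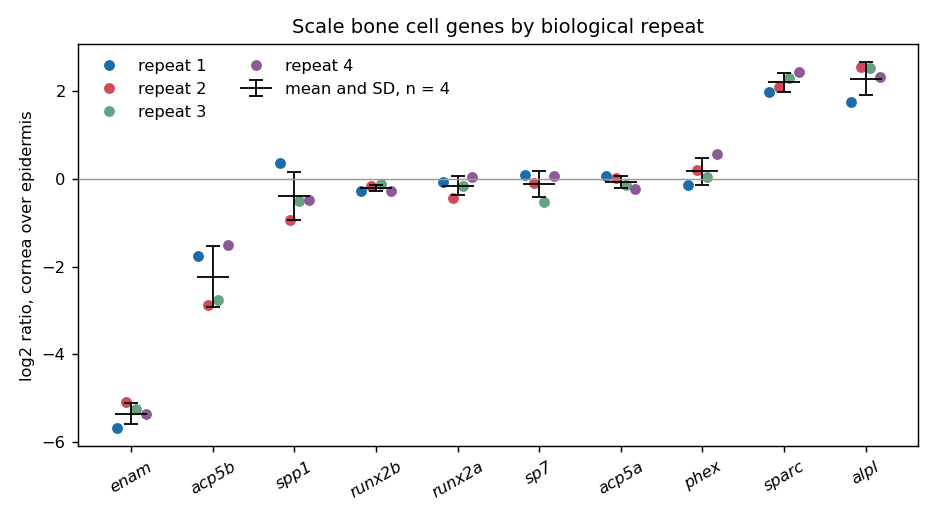
Log2 ratio of cornea over epidermis (vertical axis) of the 10 genes, ordered by their mean. Points are the 4 biological repeats, each the mean of 2 dye-swapped arrays, and bars give the mean and SD; *enam* and *acp5b* lie below 0 and *sparc* and *alpl* above 0 in all 4 repeats, whereas the other 6 lie within 1 log2 unit of 0.

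Enamelin showed the lowest ratio of the group by a wide margin. The log2 ratio of *enam* was −5.68, −5.09, −5.25 and −5.36 in repeats 1 to 4. All 4 repeats were close to each other, and on the single arrays the value lay between −5.81 and −4.92, so that it was lower in cornea on 8 of 8 arrays. The mean of −5.35 ± 0.25 (SD, n = 4; 95% confidence interval −5.69 to −5.00; adjusted p = 3.31e-05) corresponds to a signal 40.6-fold lower in cornea than in epidermis. Only 2 of the 14462 genes had a lower mean ratio. The gene was measured by 1 probe, so no other probe stands beside this value.

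The ratio of *enam* was a little lower on arrays with cornea in Cy5, where it averaged −5.52, than on those with cornea in Cy3, where it averaged −5.17, and this order held in all 4 repeats. Over all genes 0 were called for a dye effect (0%; limma). At an unadjusted p under 0.05 there were 1735 of 14462 genes, more than that threshold gives by chance. Of the 10 genes *enam* and *spp1* reached an unadjusted p under 0.05 (0.0231 and 0.0268), each with an adjusted p of 0.372. The shift was small beside the ratio of *enam* itself. Between the slides *enam* averaged −5.31 on slide 2 and −5.38 on slide 1. Over all genes 0 were called for a slide difference (0%; limma, 478 genes at an unadjusted p under 0.05), and of the 10 genes 0 reached an unadjusted p under 0.05.

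The genes whose 8 array values lay nearest to those of *enam*, by Euclidean distance in log2 units, were *nt5e* (2.01), *bgna* (2.41), *hoxc9a* (3.69), *paplnb* (3.88) and *cldn7a* (3.99). They were chosen by their array values, so that their low ratios follow from the choice and are given without a test. *bgna*, which encodes the small matrix proteoglycan biglycan, averaged −4.75 ± 0.44 (SD, n = 4), and *nt5e*, the cell surface enzyme that releases adenosine from AMP, averaged −4.79 ± 0.49 (SD, n = 4). *hoxc9a*, a homeobox gene of trunk position, averaged −4.32 ± 0.61 (SD, n = 4). *paplnb*, related to the matrix protein papilin, was lower than *enam*, at −6.68 ± 0.37 (SD, n = 4). *cldn7a*, a claudin of epithelial tight junctions, averaged −4.21 ± 0.69 (SD, n = 4). In the RefSeq gene order *enam* is followed on chromosome 1 by its relatives *scpp5*, *scpp7*, *ambn* (ameloblastin), *odam* and *scpp9*. None of these was among the named genes of the array.

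The gene of the mineralising enzyme stood on the opposite side. *alpl* encodes the tissue-nonspecific alkaline phosphatase, which frees phosphate by cleaving pyrophosphate, an inhibitor of mineral growth. Its log2 ratio was 1.74, 2.53, 2.53 and 2.31 in repeats 1 to 4. Repeat 1 was the lowest, and the value was above 0 on 8 of 8 arrays, with a range of 1.67 to 2.57. The mean of 2.28 ± 0.37 (SD, n = 4; 95% confidence interval 1.87 to 2.69; adjusted p = 2.35e-04) corresponds to a 4.85-fold higher signal in cornea, and 223 genes had a higher mean. Its 2 probes gave like values, 2.42 ± 0.31 and 2.14 ± 0.44 (SD, n = 4 each).

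*phex*, the endopeptidase of bone cells whose loss in humans causes renal phosphate wasting, was not called as a gene. Its log2 ratio was −0.15, 0.21, 0.04 and 0.56 in the 4 repeats, which lay to both sides of 0, with a mean of 0.16 ± 0.30 (SD, n = 4; 95% confidence interval −0.21 to 0.53; adjusted p = 0.446). Of its 3 probes, 2 averaged −0.10 and −0.08 and the other averaged 0.67 ± 0.28 (SD, n = 4; adjusted p = 0.0317 over all probes). That probe was above 0 in every repeat, but it averaged 0.06 on arrays with cornea in Cy5 and 1.28 on arrays with cornea in Cy3.

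The regulators of the osteoblast fate lay near 0. *sp7* (osterix) is the zinc finger factor of committed osteoblasts, and *runx2a* and *runx2b* are the 2 zebrafish copies of the runt domain factor that acts upstream of it. *sp7* gave 0.08, −0.10, −0.53 and 0.07 in repeats 1 to 4, with a mean of −0.12 ± 0.29 (SD, n = 4; 95% confidence interval −0.48 to 0.24; adjusted p = 0.569). The only repeat that stood away from 0 was repeat 3, where the arrays with cornea in Cy5 and in Cy3 read 0.20 and −1.27. The dye-swapped arrays of *sp7* had opposite signs in every repeat, and single arrays ran from −1.27 to 0.53.

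*runx2a* gave −0.06, −0.44, −0.17 and 0.05 in the 4 repeats, with a mean of −0.16 ± 0.21 (SD, n = 4; 95% confidence interval −0.48 to 0.16; adjusted p = 0.402). *runx2b* gave −0.28, −0.17, −0.13 and −0.28, with a mean of −0.21 ± 0.08 (SD, n = 4; 95% confidence interval −0.49 to 0.06; adjusted p = 0.200). The copies overlapped, and their difference within a repeat averaged 0.06 ± 0.27 (SD, n = 4; range −0.27 to 0.32; two-sided exact sign-flip permutation test, p = 0.75). The smallest p this test can give with 4 repeats is 0.13. The second probe of *runx2b* was below 0 in all 4 repeats, with a mean of −0.43 (adjusted p = 0.0981 over all probes), whereas its first probe averaged 0.0044.

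Among those of the 10 genes with several probes, the matrix protein genes *sparc* and *spp1* had the largest differences between probes of the same gene. *sparc* encodes osteonectin, which binds collagen and calcium and is made by many connective tissue cells besides osteoblasts. Its log2 ratio was 1.96, 2.08, 2.29 and 2.42 in repeats 1 to 4, and the 8 arrays lay between 1.96 and 2.43. The mean of 2.19 ± 0.21 (SD, n = 4; 95% confidence interval 1.87 to 2.51; adjusted p = 1.29e-04) corresponds to a 4.57-fold higher signal in cornea.

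This mean joins 2 probes that were called in the same direction but at different sizes. The first probe of *sparc* gave 3.69, 3.11, 3.73 and 4.16 in the 4 repeats, and the second gave 0.24, 1.05, 0.86 and 0.69. Their ranges did not overlap, and the difference within a repeat averaged 2.97 ± 0.66 (SD, n = 4). Among the 5098 genes with at least 2 probes the median spread between probes was 0.59, and the spread of *sparc* lay at the 98.0 percentile. With the less variable second probe alone, the ratio of the gene was 0.71 (adjusted p = 0.0143 over all genes) in place of 2.19. The sequences of the probes were not analysed here.

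*spp1* encodes osteopontin, a secreted acidic phosphoprotein of osteoblasts and osteoclasts that is also made by macrophages. As a gene it was not called. Its log2 ratio was 0.36, −0.93, −0.51 and −0.48 in repeats 1 to 4, with a mean of −0.39 ± 0.54 (SD, n = 4; 95% confidence interval −0.91 to 0.13; adjusted p = 0.211). Repeat 1 was the only repeat above 0, and without it the mean was −0.64 and the gene was called lower in cornea (adjusted p = 0.0311).

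The 3 probes of *spp1* were called in opposite directions or not at all. The second probe gave −0.76, −2.64, −2.36 and −2.31 in the 4 repeats (mean −2.02 ± 0.85, SD; adjusted p = 0.00538 over all probes), with repeat 1 the least negative. The third probe gave 0.93, 1.02, 0.97 and 0.66 (mean 0.90 ± 0.16, SD; adjusted p = 0.00675 over all probes). It averaged 0.52 on arrays with cornea in Cy5 and 1.27 on arrays with cornea in Cy3, and was above 0 on 8 of 8 arrays. The first probe ran from −1.17 in repeat 2 to 0.90 in repeat 1 and averaged −0.05. The spread of 2.91 between the probe means lay at the 97.8 percentile of genes with several probes, so the ratio of *spp1* depended on the probe that was read.

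**Figure D2:**
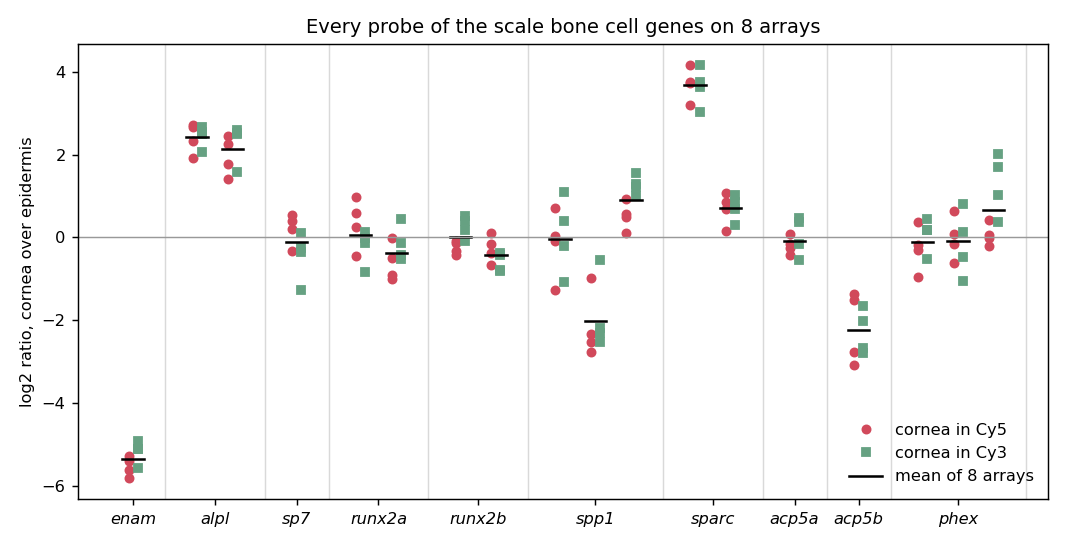
Log2 ratio of cornea over epidermis (vertical axis) of each of the 18 probes on the 8 arrays, grouped by gene. Circles are arrays with cornea in Cy5, squares those with cornea in Cy3, and black lines the mean of a probe; the probes of *alpl* lie together, those of *sparc* are both above 0 but 2.97 log2 units apart, and those of *spp1* lie on both sides of 0.

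Counted by probe, 6 of the 18 were called higher in cornea, where 14.0% of all features were, 3 were called lower, where 10.4% of all features were, and 9 were not called. All features include 24159 without a gene symbol, whereas each of the 18 has one, so these shares are not a like base. The 6 probes called higher were both of *alpl*, both of *sparc*, the third of *spp1* and the third of *phex*. The 3 called lower were the probes of *enam* and *acp5b* and the second of *spp1*.

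The gene pair of the resorbing cells split. *acp5a* and *acp5b* are the zebrafish copies of tartrate-resistant acid phosphatase, the enzyme whose stain is used to find osteoclasts and which macrophages can also make. *acp5b* gave −1.76, −2.87, −2.76 and −1.51 in repeats 1 to 4. It was below 0 on 8 of 8 arrays (−3.07 to −1.36), with repeats 2 and 3 lower than repeats 1 and 4. The mean was −2.23 ± 0.69 (SD, n = 4; 95% confidence interval −2.86 to −1.59; adjusted p = 0.00114), a signal 4.68-fold lower in cornea, and 73 genes had a lower mean.

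*acp5a* gave 0.06, 0.01, −0.15 and −0.23 in the 4 repeats, with a mean of −0.08 ± 0.13 (SD, n = 4; 95% confidence interval −0.37 to 0.22; adjusted p = 0.660). Its single arrays ran from −0.54 to 0.46, and the dye-swapped arrays of repeats 1, 2 and 4 had opposite signs. No value of *acp5a* overlapped those of *acp5b*. The difference of *acp5a* minus *acp5b* was 1.82, 2.88, 2.62 and 1.28 in repeats 1 to 4, a mean of 2.15 ± 0.74 (SD, n = 4), with 2.35 on slide 1 and 1.95 on slide 2. The two-sided exact sign-flip permutation test gave p = 0.13, the smallest that 4 repeats allow. Each copy was read by 1 probe.

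Other genes of the same processes were followed in lists, of which only part were measured under their symbols. Their counts stand beside the 22.9% of all genes called higher in cornea and the 13.8% called lower, and no list was tested as a whole. Of 26 listed genes of the bone and scale matrix 9 were measured, and 6 were called lower in cornea, 2 higher and 1 was not called, with a median log2 ratio of −1.39. *col1a1b*, a chain of type I collagen, gave −3.22, −2.75, −2.60 and −1.43 in the 4 repeats and averaged −2.50 ± 0.76 (SD, n = 4; adjusted p = 9.79e-04). *mgp*, the matrix Gla protein that inhibits calcification, averaged −1.91 ± 0.38 (SD, n = 4; adjusted p = 4.30e-04). Osteocalcin (*bglap*), a product of mature osteoblasts that was singled out after its values were seen, gave −2.09, −0.83, −1.23 and −1.42 in the 4 repeats (adjusted p = 0.00305).

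All of these matrix genes were below 0 in every repeat, but other collagens of the list depended on the probe. *col10a1a*, which encodes collagen X, averaged −1.66 (adjusted p = 0.00426) over probes that read −3.61 and 0.29. *col1a1a* averaged −1.44 (adjusted p = 0.00691) over probes that read −3.63 and 0.75. *col1a2*, the other chain gene of type I collagen, named for its probes after they were seen, averaged −0.80 (adjusted p = 0.00988) over 3 probes that ran from −3.02 to 1.83, and with its probe of smallest variance it was called higher (1.83, adjusted p = 2.33e-04). The probes of these 3 collagen genes lay further apart than those of *sparc* and *spp1*. The 2 genes called higher were *ogna*, which encodes the small leucine-rich proteoglycan osteoglycin, at 0.85 ± 0.40, and *col5a2a*, a chain of the fibril-forming collagen V, at 0.60 ± 0.21 (SD, n = 4 each; adjusted p = 0.0114 and 0.0143). Without repeat 4 *col5a2a* was not called (0.52, adjusted p = 0.0667), which left 1 gene called higher.

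Of 28 listed genes of phosphate and mineral handling 16 were measured, with 4 called higher, 4 lower and 8 not called, and a median log2 ratio of −0.05. The number called higher was near the share over all genes. *slc20a1b*, a sodium-phosphate cotransporter, averaged 2.46 ± 0.27 (SD, n = 4; adjusted p = 1.23e-04). The 2 copies of the pyrophosphate exporter gene *ankh* were called in opposite directions, *ankha* at 1.46 (adjusted p = 4.37e-04) and *ankhb* at −1.10 (adjusted p = 0.00621). *cyp24a1*, the vitamin D 24-hydroxylase, was called lower at −0.51 (adjusted p = 0.0275) over probes that read −1.57 and 0.56. This call was lost without repeat 2, 3 or 4 (−0.47, −0.42 and −0.57) and with a replicate block (adjusted p = 0.0653). Without any of those repeats 1 gene of the list was called lower, and without repeat 4 there were 2 called higher.

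Of 26 listed osteoblast regulators 22 were measured. Here 10 were called higher and 3 lower, with a median log2 ratio of 0.24. The homeobox genes *dlx4b* (1.71 ± 0.14) and *msx2b* (1.68 ± 0.33) were higher in cornea, and the homeobox gene *dlx5a* (−2.14 ± 0.37) and the hedgehog ligand gene *ihha* (−1.63 ± 0.52) were lower (SD, n = 4 each; adjusted p = 2.14e-04, 5.13e-04, 2.75e-04 and 0.00159). These genes also act in other tissues of the head and fins.

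Of 31 listed genes of osteoclasts and bone resorption 22 were measured, with 4 called higher, 5 lower and 13 not called, and a median log2 ratio of −0.16. Genes of resorbing enzymes went to both sides. *ctsk*, which encodes the collagen-cleaving protease cathepsin K, gave 2.08, 2.94, 2.70 and 3.04 in the 4 repeats (mean 2.69 ± 0.43, SD; adjusted p = 1.93e-04). *ca2*, a carbonic anhydrase, averaged 2.29 ± 0.44 (SD, n = 4; adjusted p = 3.19e-04). The paper also counted *ca2* among its cornea genes. *mmp9*, a matrix metalloproteinase of osteoclasts and leukocytes, averaged −1.67 ± 0.89 (SD, n = 4; adjusted p = 0.00850), with repeats 2 and 3 lower than repeats 1 and 4 as for *acp5b*. The order also held for *ankhb* and for the macrophage markers *coro1a* and *mpeg1.1*, so it was not particular to osteoclast genes. *itgb3a*, a copy of the beta chain of the osteoclast integrin, averaged −1.19 ± 0.33 (SD, n = 4; adjusted p = 0.00189). The other copy, *itgb3b*, was not called (−0.04, adjusted p = 0.911), and *itgav*, which encodes an integrin alpha chain, was called higher (0.73, adjusted p = 0.0119).

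Signals of scale development were thinly covered, with 7 of 13 listed genes measured, 1 called higher, 3 lower and 3 not called. *shha*, the sonic hedgehog copy of fin and scale outgrowth, averaged −1.42 (adjusted p = 0.0134) over probes that read −2.65 and −0.19, and was not called without repeat 4 (−1.27, adjusted p = 0.0584). *shhb* (−0.57, adjusted p = 0.0494) and *fgfr1a* (0.48, adjusted p = 0.0296), a fibroblast growth factor receptor gene, lay close to the threshold. The probes of *shhb* read −1.36 and 0.23. Without repeat 1, 2 or 4 *shhb* was not called (−0.48, −0.58 and −0.45), nor was *fgfr1a* without repeat 2, 3 or 4 (0.39, 0.49 and 0.50), and neither was called with a replicate block (adjusted p = 0.116 and 0.0825). *lef1*, also called lower, averaged −0.55 ± 0.13 (SD, n = 4; adjusted p = 0.0132) and ran from −0.74 to −0.45 over the repeats. Without repeat 4, 1 gene of this list was called lower.

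**Figure D3:**
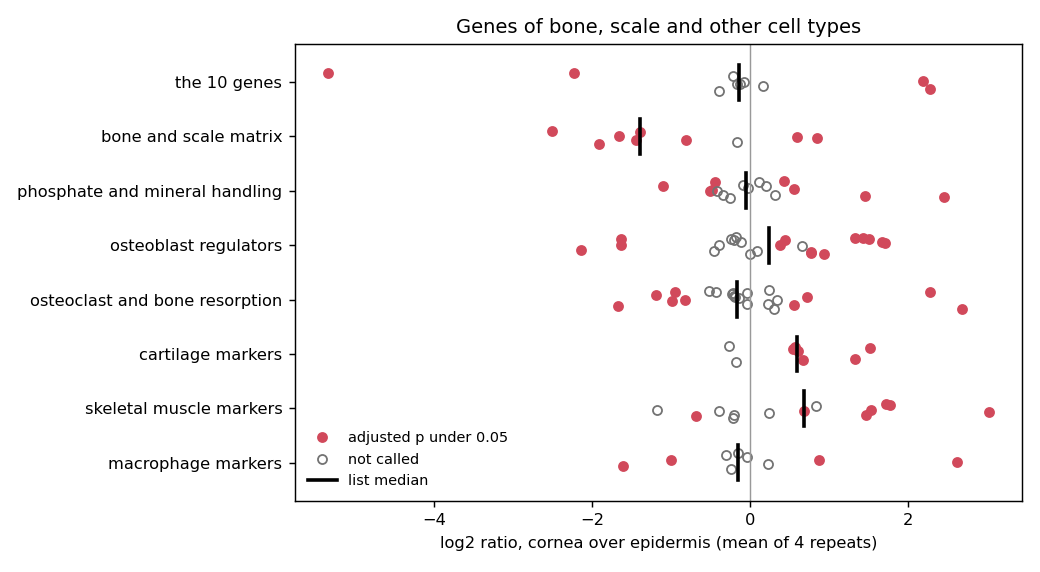
Mean log2 ratio of cornea over epidermis (horizontal axis) of the measured genes of each list. Filled points had an adjusted p under 0.05, open points were not called, and black bars are list medians; the bone and scale matrix list has its median at −1.39, whereas those of the phosphate, osteoblast and osteoclast lists lie between −0.16 and 0.24 and those of cartilage and skeletal muscle markers above 0.

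Markers of other cell types were also read. Their counts stand beside the 22.9% of all genes called higher in cornea and the 13.8% called lower. Of 8 measured cartilage markers 6 were called higher in cornea and 0 lower, with a median log2 ratio of 0.60 and medians of 0.55 to 0.83 in the 4 repeats. Among those called higher, *col9a2* is also an RT-qPCR gene of the study, which detected it in cornea but not in dermis. The probes of *col9a2* read 0.15 and 2.52, and those of *matn4*, also called higher, ran from 0.06 to 3.21. Of 13 measured skeletal muscle markers 6 were called higher and 1 lower, with a median of 0.68 and medians of 0.16 to 0.81 in the 4 repeats. Their part in the higher ratios of *alpl* and *sparc* was not tested.

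Of 9 measured macrophage markers 2 were called higher and 2 lower, beside 22.9% and 13.8% of all genes. Their median was −0.14, with medians of −0.62 to 0.20 in the 4 repeats. The related perforin genes *mpeg1.2* (2.63 ± 0.99) and *mpeg1.1* (−1.61 ± 0.25; SD, n = 4 each) of macrophages were called in opposite directions (adjusted p = 0.00198 and 3.97e-04). Whether their probes share sequence was not analysed. The part of macrophages in the lower ratio of *acp5b* was not tested. Whether the low ratios of *enam* and the matrix genes come from epidermis or from scale cells that may have been taken with it cannot be told apart in these samples.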

How the data were processed

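Per the labels and the study's methods, the authors amplified total RNA, scanned in GenePix, and processed the spots in limma (background by the minimum method, within-array and Aquantile between-array normalisation). Which limma version they ran is not given. Each deposited value is the log2 ratio of a feature on an array, where base 2 is limma's convention and is not stated. Arrays of opposite dye orientation of a repeat correlated above 0 (r between 0.390 and 0.515), so no sign was turned. Array medians lay between −0.0195 and 0.00915, and 0 values were missing. The number of arrays limits the precision.

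Gene names hold only if a rearranged probe grid of 532 by 85 places, found from the data, is right. With it, the first 2 probes of a gene correlated at r = 0.361 over 5098 genes, against 0.0191 with the numbering as given. The grid was found by such a correlation between probes of a gene, so the higher r is not independent evidence for it. A gene's value is the mean over its probes; 21061 probes had 1 symbol, 0 several and 24159 none, control spots included. Of the 14462 genes, 13752 were found in a RefSeq table (assembly GRCz12tu), which gave their symbols and the gene order. The others kept the symbol of the probe annotation. No filter was applied.

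The 2 arrays of a repeat share their extracts, so their mean was used (n = 4). The R package limma (version 3.58.1, under R 4.3.3) tested the mean of every feature and every gene against 0 by lmFit and eBayes, two-sided, with Benjamini-Hochberg adjustment over all of them, and the procedure was tested on simulated data. Deviations of arrays of the same repeat correlated between 0.0213 and 0.0899 and of different repeats between −0.0924 and 0.0370. That repeats came from separate pools of animals is per the labels. Tables were handled with the R package data.table (version 1.17.8), pandas 2.3.3 and numpy 2.4.6 under Python 3.11.15 and drawn with matplotlib 3.10.9. Of each gene list the counts and the called genes with the largest ratios are named, up to 4 a direction for matrix genes and up to 2 for others. The plan allowed up to 4 a direction in every list, so some called genes of the other lists are left out. For markers the counts and examples are given. Some other list genes are named for comparison, and their values under other processing are not given. The genes, lists and the probe grid were chosen with earlier results of these data known. The alternatives were single dye orientations, slides, repeats left out, blocks, probe summaries, scalings, tests and the numbering as given.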

Additional observations from a re-analysis of the deposited data

Results flagged for a closer look

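Over 59 sets of 4 repeat values (named genes, their probes and the paralog differences), 4 held a repeat far from the other 3, with a gap to its nearest neighbour that took up nearly the whole range (Dixon's test at its 95% critical value). Chance gives such a gap in about 5% of sets. The 4 were *ogna*, where repeat 4 read 1.45, *dlx4b*, where repeat 3 read 1.92, *col1a2*, where repeat 4 read −0.29, and *hoxc9a*, where repeat 1 read −3.40. None of the 10 genes of scale bone cells was among them.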

How the results depend on the processing

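Over 17 alternatives that kept the probe grid, *enam* (−5.63 to −5.17), *alpl* (2.14 to 2.46), *sparc* (0.71 to 2.36) and *acp5b* (−2.47 to −2.01) kept their direction and their call. With a replicate block over 8 arrays and a dye term (paired arrays, consensus correlation 0.336) *sparc* stayed at 2.19, and the block changed no call among the 10 genes. Uncalled values crossed 0: *sp7* to 0.20 with cornea in Cy5 only and between −0.19 and 0.017 without 1 repeat, *runx2a* to 0.065 and *runx2b* to 0.0044 with the probe of smallest variance, *acp5a* to 0.036 with cornea in Cy3 only and 0.034 on slide 1, *phex* to −0.071 with cornea in Cy5 only, and *runx2a* minus *runx2b* to −0.029 on slide 1 and between −0.033 and 0.16 without 1 repeat. With the probe of smallest variance *spp1* was called higher (0.90), *phex* too (0.67), so that 4 of the 10 genes were called higher, and *col10a1a* read 0.29 and *col1a2* 1.83. Without repeat 1 *spp1* was called lower, with −0.64 to −0.21 over the repeats left out.

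With the numbering as given, the calls of *enam* (−0.49, adjusted p = 0.0951), *alpl* (−0.22), *sparc* (0.09) and *acp5b* (0.11) were lost, and 0 of the 10 genes were called lower. Called higher were then *runx2b* (0.52, adjusted p = 0.0438) and *acp5a* (1.45, adjusted p = 0.00293), and *sp7* (0.25), *runx2a* (0.048), *spp1* (−0.21) and *phex* (−0.012) were not called. Of 33 further named genes 20 changed sign, which the change of every gene's probes brings about. Above 0 were then *col1a1b* (0.14), *col1a1a* (0.16), *col1a2* (0.47), *bglap* (0.17), *cyp24a1* (0.41), *ihha* (0.0012), *mmp9* (0.26), *itgb3a* (1.24), *shhb* (0.47), *smoc2* (0.29), *sp9* (0.27), *runx3* (0.070), *nt5e* (0.80), *bgna* (0.80) and *cldn7a* (0.86), and below 0 *slc20a1b* (−0.36), *ankha* (−0.37), *dlx4b* (−0.51), *ctsk* (−0.76) and *acp1* (−0.31).

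Over all genes, 1400 were called higher and 639 lower on slide 1 alone, 2190 and 1224 on slide 2 alone, and 543 and 166 against a 2-fold change, each with fewer samples or a stricter test. With the numbering as given 1944 were called higher, and without 1 repeat 1329 to 1879 were called lower, the fewest without repeat 3.

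For the lists the count of genes called, over the alternatives that kept the grid, ran from 0 to 3 higher and 2 to 6 lower for the matrix, 1 to 4 and 0 to 4 for phosphate handling, 2 to 10 and 1 to 5 for osteoblast regulators, 2 to 4 and 0 to 6 for osteoclasts, 0 to 1 and 0 to 3 for scale signals, and 2 to 9 and 1 to 4 for sequence relatives. The test against a 2-fold change gave the lowest count of every list, in some lists together with single slides or dye orientations. For scale signals called higher, the lowest count of 0 also came without repeat 2, 3 or 4, with slide as a block and with the replicate block. With single repeats left out they were 1 to 2 and 6 for the matrix, 2 to 3 and 1 to 3 for phosphate, 7 to 8 and 3 to 4 for osteoblasts, 3 to 4 and 5 for osteoclasts, 0 to 1 and 1 to 3 for scale signals, and 6 to 8 and 4 for relatives. Alternatives for background correction and dim probes were not run, since they need spot intensities.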

Other observations

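Relatives of the 10 genes by sequence or name were measured beside them. Of 32 listed relatives 22 were measured, and 8 were called higher in cornea, 4 lower and 10 not called, with a median log2 ratio of 0.23. Over all genes 22.9% were called higher and 13.8% lower. *alpi.1*, an intestinal-type alkaline phosphatase, gave 3.27, 2.40, 2.89 and 2.75 in repeats 1 to 4 and averaged 2.83 ± 0.36 (SD, n = 4; adjusted p = 1.23e-04), on the same side as *alpl*. *acp1*, a low molecular weight phosphatase that was listed for its name, averaged 1.54 ± 0.17 (SD, n = 4; adjusted p = 3.14e-04). *smoc2*, a matrix protein gene related to *sparc* and singled out after its values were seen, averaged −1.01 ± 0.43 (SD, n = 4; adjusted p = 0.00653) and was below 0 in all 4 repeats, but was not called with a replicate block (adjusted p = 0.100).

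Of 11 measured relatives of *sp7*, *runx2a* and *runx2b*, 2 were called higher, 3 lower and 6 not called, beside 22.9% and 13.8% of all genes. The 2 called higher were *sp1* (1.45, adjusted p = 3.51e-04) and *sp2* (1.36, adjusted p = 9.01e-04). *sp9*, a zinc finger factor of appendage outgrowth related to *sp7*, gave −2.10, −4.24, −4.06 and −3.43 in the 4 repeats and averaged −3.46 ± 0.97 (SD, n = 4; adjusted p = 6.60e-04). *runx3*, the runt domain factor of blood and skeletal cells, averaged −1.49 ± 0.17 (SD, n = 4; adjusted p = 3.51e-04), with probes at −2.39 and −0.59.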
